A study of Arabidopsis thaliana with 12 samples.

Results

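The nitrilases NIT1 (AT3G44310), NIT2 (AT3G44300), NIT3 (AT3G44320) and NIT4 (AT5G22300) of Arabidopsis thaliana were followed in roots of an NH4+-tolerant and an NH4+-sensitive ecotype. The members were taken by their gene identifiers, 4 of 26568 genes in the deposited count table, and all 4 had enough counts to be among the 19327 genes tested. Roots of Or-1, the tolerant ecotype, and Rak-2, the sensitive one, were sampled after 1 d on 1 mM (NH4)2SO4 or 1 mM Ca(NO3)2, with 3 libraries in each of the 4 groups. All plants had first been grown for 5 d on nitrate. The study's methods add a period without nitrogen before the final day, which the sample labels leave out. NH4+ came as a sulfate salt and NO3- as a calcium salt, and the methods give 1 calcium level for all solutions. NH4+, the added sulfate and the absence of nitrate therefore cannot be told apart. Each ecotype is 1 natural inbred line and 8 plants shared a pot, and the replicates were called biological by the study.

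Nitrilases split the carbon-nitrogen triple bond of nitriles, giving an acid and ammonia, and some also stop at the amide. NIT1, NIT2 and NIT3 are close relatives that act on nitriles released from glucosinolates and can turn indole-3-acetonitrile into the auxin indole-3-acetic acid. NIT4 belongs to an older branch found across plants and acts on beta-cyanoalanine, the product of cyanide detoxification, yielding asparagine, aspartate and ammonia. Cyanide is released in roots when ethylene is made and when camalexin, an indole phytoalexin, is completed. NIT2 is known for induction in pathogen-treated leaves and NIT3 for induction in sulfur-starved plants.

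In the TAIR10.1 annotation NIT2 (chr3:15983199-15985535), NIT1 (chr3:15986624-15989505) and NIT3 (chr3:15993259-15995811) stand in a row on the plus strand. Their gaps are 1088 bases between NIT2 and NIT1 and 3753 bases between NIT1 and NIT3, with 0 annotated genes between them. NIT4 lies apart, at chr5:7379187-7382025, also on the plus strand. Each gene has 5 coding exons, and the encoded proteins have 346, 339, 346 and 355 residues for NIT1, NIT2, NIT3 and NIT4. The count table names no genome build, but its lengths for NIT1, NIT2 and NIT3 are those of an annotated transcript. Its length for NIT4, 2446 bases, equals the bases covered by all annotated exons, and the transcript read here has 1543.

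The coding sequences of NIT1 and NIT2 were identical at 91.4% of 1020 aligned bases. NIT3 was identical to NIT1 at 88.1% and to NIT2 at 87.4%, and NIT4 to the other members at 73.8 to 74.7%. The longest run of identical bases between the NIT1 and NIT2 transcripts was 104, so shorter reads from it fit both genes, and how such reads were counted is not given in the sources used here. Of all 50-base windows of the transcripts, 4.91% in NIT1 and 5.79% in NIT2 also occurred in another member, against 0.612% in NIT3 and 0% in NIT4. A 90-base stretch of coding exon 4 is shown because NIT1 and NIT2 cannot be separated in it. Capitals mark bases that differ from NIT1, of which NIT3 had 11 (plus strand, read from the TAIR10.1 reference of RefSeq, 5′ to 3′).
NIT1, chr3:15988319-15988408: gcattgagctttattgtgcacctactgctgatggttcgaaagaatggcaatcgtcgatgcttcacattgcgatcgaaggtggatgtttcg
NIT2, chr3:15984644-15984733: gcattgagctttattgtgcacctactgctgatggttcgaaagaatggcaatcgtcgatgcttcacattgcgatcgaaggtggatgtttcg
NIT3, chr3:15994953-15995042: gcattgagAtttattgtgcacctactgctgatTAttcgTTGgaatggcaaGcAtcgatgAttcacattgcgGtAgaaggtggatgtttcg

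The opposite case is a 90-base stretch of coding exon 3, the one in which NIT2 differs most from NIT1, at 15 bases, and NIT3 at 14. Here the genes of the Col-0 reference can be told apart.
NIT1, chr3:15987943-15988032: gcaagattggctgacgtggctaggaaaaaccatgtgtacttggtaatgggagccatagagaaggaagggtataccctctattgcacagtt
NIT2, chr3:15984269-15984358: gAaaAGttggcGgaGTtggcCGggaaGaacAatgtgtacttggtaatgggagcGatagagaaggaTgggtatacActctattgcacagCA
NIT3, chr3:15994587-15994676: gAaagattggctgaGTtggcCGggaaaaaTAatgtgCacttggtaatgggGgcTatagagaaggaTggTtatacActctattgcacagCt

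Library totals ran from 16005610 to 22388738 counts. Root markers were present, since all 8 root tissue markers had more than 3 counts in every library. Of 8 photosynthesis genes listed as markers of shoot RNA, 7 were in the table. Their summed level was 10.8 to 333 normalized CPM (read counts scaled to library size) in Or-1 under NH4+ and 168 to 748 under NO3-. In Rak-2 it was 247 to 1066 under NH4+ and 21.2 to 458 under NO3-. From NO3- to NH4+, 0 of the 7 genes had a positive log2 fold change in Or-1 (median -0.79) and 7 of 7 in Rak-2 (median 1.58). For the difference of these responses, Or-1 minus Rak-2, 0 of 7 were positive, with a median of -2.76. By the thresholds given below, 0 of the 7 were called in any of these comparisons. The summed level varied widely inside each group, and its part in the results below was not tested. In whole roots, fewer cells of a type and less RNA per cell cannot be told apart.

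Under NH4+, NIT2, NIT4 and NIT1 rose in Or-1 and only NIT2 passed the thresholds in Rak-2. Genes were called at an absolute log2 fold change over 1 and an adjusted p under 0.05 in the quasi-likelihood test of edgeR, adjusted by Benjamini-Hochberg over all genes tested. By this rule 3 of the 4 members were called in Or-1, all higher, where 8.86% of all genes tested were called and 5.26% were called higher. In Rak-2 1 of 4 was called, where the background was 6.09% (2.69% higher), or 1177 genes. When single libraries were left out, that count ran from 755 (without Rak-2 replicate 1 under NH4+) to 1742 (without Rak-2 replicate 3 under NO3-). The libraries of the 2 nitrogen sources did not overlap for 4 of 4 members in Or-1 and 1 of 4 in Rak-2, as for 36.5% and 32.1% of all genes tested. The members had a median log2 fold change of 1.86 in Or-1, against -0.04 for all genes. In Rak-2 their median was 0.59, against -0.01.

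**Figure D1:**
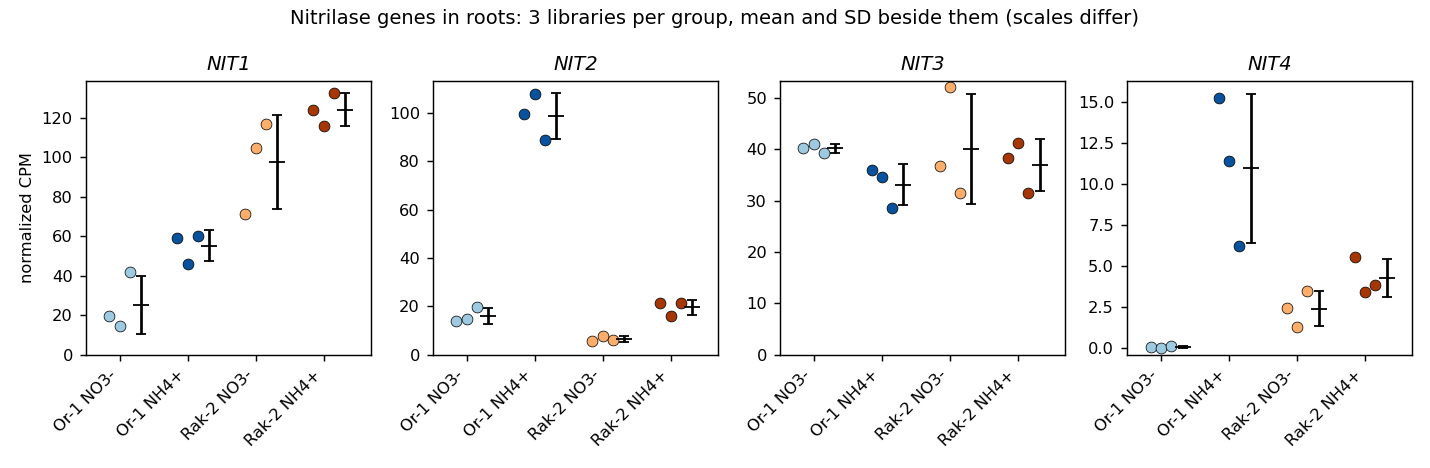
Level of each nitrilase gene in normalized CPM (vertical axis, from 0, scaled separately for each gene) in the 12 libraries, with 3 points per group and the mean and SD beside them. NIT2 in Or-1 under NH4+ (89.0 to 108) and NIT4 in Or-1 under NO3- (0 to 0.132) stand apart from all other groups, while the 4 groups of NIT3 lie between 28.5 and 52.1.

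NIT2, the member next to NIT1, was at 99.5, 108 and 89.0 normalized CPM in the Or-1 libraries under NH4+ and at 13.9, 14.7 and 19.9 under NO3-. The groups did not overlap, and the lowest NH4+ library was far above the highest NO3- library. The fitted rise was 6.10-fold, a log2 fold change of 2.61 (standard error, SE, 0.19, adjusted p = 9.40e-06, edgeR). In Rak-2, NIT2 was at 21.3, 16.1 and 21.3 under NH4+ and at 5.51, 7.80 and 6.18 under NO3-. These groups did not overlap either, and the rise was 3.0-fold, or 1.58 in log2 units (SE 0.19, adjusted p = 0.000450, edgeR). Both rises were called in each of the 12 fits that left out one library, with log2 fold changes of 2.53 to 2.81 and 1.5 to 1.75.

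Whether the NIT2 rise was larger in Or-1 depended on the test. The difference of the responses was 1.02 on the log2 scale (SE 0.26, 95% interval 0.46 to 1.58). It was not called by edgeR (unadjusted p = 0.00198, adjusted p = 0.0793), where 1.23% of all genes were called (1.08% with the larger value in Or-1), but it was called by DESeq2's Wald test at an adjusted p of 0.00640. The number of genes called by edgeR for this difference, 237, ran from 69 to 613 when single libraries were left out, and NIT2 was called in none of those 12 fits. Over the 7 alternative fits the adjusted p of NIT2 lay between 0.00640 and 0.121.

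NIT4 was all but silent in Or-1 on NO3-, with 1, 0 and 3 counts in its libraries. Its 0 counts in the second of them allow a level of up to 0.159 normalized CPM (3 counts, counting error only). Under NH4+ the Or-1 libraries held 314, 223 and 128 counts. From the summed counts of 665 and 4, scaled for depth, the level was 163 times higher under NH4+, with a 95% exact counting interval of 63.5 to 602. The fitted log2 fold change was 7.24 (SE 0.68, adjusted p = 5.24e-05, edgeR), and its size depends on how so low a level is smoothed. It ran from 6.73 to 8.37 when single libraries were left out, the latter without Or-1 replicate 3 under NO3-, which held 3 of the 4 counts, and the call stood in all 12 fits.

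In Rak-2 NIT4 was expressed on both nitrogen sources, at 111, 65 and 79 counts under NH4+ and 35, 28 and 64 under NO3-. As normalized CPM these were 5.57, 3.4 and 3.87 against 2.44, 1.32 and 3.5, so the groups overlapped at their edges. The change of 0.83 on the log2 scale was not called (95% interval -0.17 to 1.83, adjusted p = 0.256, edgeR). NIT4 was the one member whose response differed between the ecotypes by edgeR, by 6.41 on the log2 scale (SE 0.83, adjusted p = 0.00804). That call stood in all 12 fits that left out one library, with values from 5.90 to 7.54.

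NIT1 was at 59.3, 46.0 and 59.9 normalized CPM in Or-1 under NH4+ and at 19.5, 14.3 and 42.0 under NO3-. One NO3- library was well above its 2 partners but still below every NH4+ library. The log2 fold change was 1.12 (SE 0.33, adjusted p = 0.0400, edgeR). This call was weak: it stood in 5 of the 12 fits that left out one library, with values of 0.84 to 1.73 and adjusted p from 0.00115 to 0.111. It was lost without any one of the 3 Or-1 libraries under NH4+, Or-1 replicate 1 or 2 under NO3-, or Rak-2 replicate 1 or 3 under NH4+. In Rak-2 NIT1 was at 124, 116 and 132 under NH4+ and at 71.2, 105 and 117 under NO3-, with overlapping groups. Its change of 0.35 was not called (95% interval -0.36 to 1.05), and neither was the difference of the responses, 0.77 (95% interval -0.23 to 1.78, adjusted p = 0.410, edgeR).

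NIT3, the last gene of the row, stayed within a narrow range. In Or-1 it was at 36.0, 34.7 and 28.5 normalized CPM under NH4+ and at 40.1, 41.1 and 39.3 under NO3-. The NO3- libraries all lay above the NH4+ libraries, and the change of -0.28 was not called (95% interval -0.68 to 0.11, adjusted p = 0.333, edgeR). In Rak-2 NIT3 was at 38.2, 41.3 and 31.4 under NH4+ and at 36.7, 52.1 and 31.4 under NO3-. The change there was -0.12 (95% interval -0.51 to 0.28), a value that ran from -0.27 to 0.13 when single libraries were left out.

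**Figure D2:**
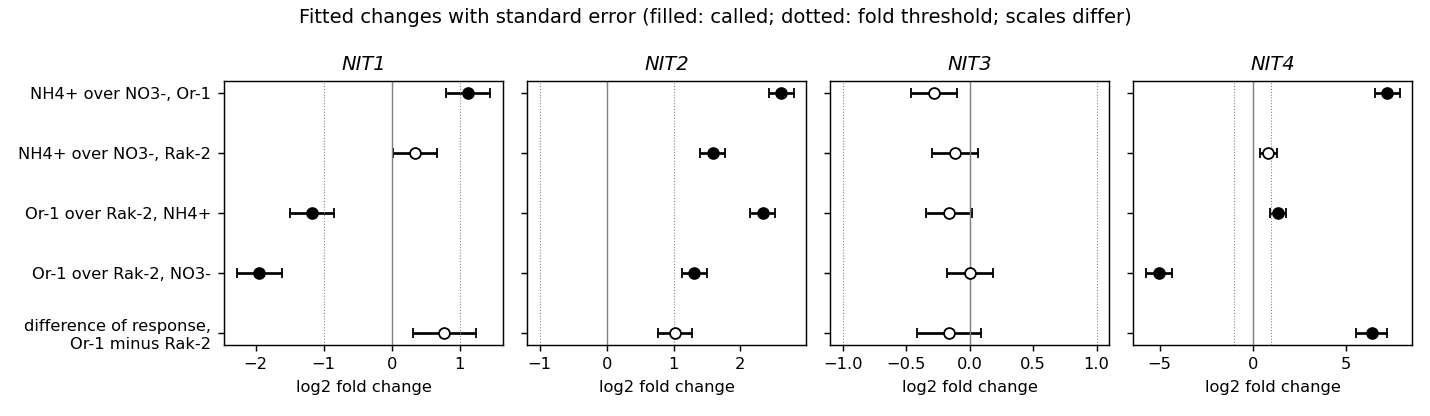
Fitted log2 fold changes of the 4 genes (horizontal axes, scaled separately) with their standard errors in the 5 comparisons, filled where the change was called and with dotted lines at the fold threshold. NIT4 spans from -5.05 between the ecotypes under NO3- to 7.24 for the response of Or-1, and NIT3 is called in none of the 5.

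The ecotypes also differed on the same nitrogen source. These comparisons use the same 12 libraries as the responses and are not independent of them. Under NH4+, 3 of the 4 members were called, NIT2 and NIT4 higher and NIT1 lower in Or-1, where 12.2% of all genes were called, 6.55% higher and 5.66% lower. The ecotypes did not overlap for 3 of 4, as for 48.8% of all genes. Under NO3-, 3 of 4 were called, NIT2 higher and NIT1 and NIT4 lower in Or-1, where 8.64% were called, 4.35% higher and 4.29% lower. Again 3 of 4 did not overlap, as for 26.2% of all genes. NIT4 thus had the higher level in Or-1 on one nitrogen source and in Rak-2 on the other.

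Under NO3-, the summed 127 NIT4 counts of Rak-2 against 4 in Or-1 gave a ratio of 35.1 (95% exact counting interval 13.4 to 131) and a fitted log2 fold change of -5.05 for Or-1 against Rak-2 (adjusted p = 0.000437, edgeR). It ran from -6.17, without the same Or-1 replicate 3, to -4.54 when single libraries were left out, and was called each time. Under NH4+ NIT4 was higher in Or-1, at 6.22 to 15.3 normalized CPM against 3.4 to 5.57. The log2 fold change was 1.36 (SE 0.44, adjusted p = 0.0476, edgeR). This second call stood in 6 of the 12 fits that left out one library, with values from 1.04 to 1.64 and adjusted p up to 0.157. It was lost without Or-1 replicate 1 or 2 under NH4+, Or-1 replicate 1 under NO3- or any Rak-2 library under NH4+, and also with total count or upper-quartile scaling.

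NIT1 was lower in Or-1 on both sources. Under NO3- the log2 fold change was -1.94 (SE 0.34, adjusted p = 0.00217, edgeR), called in all 12 fits that left out one library. Under NH4+ it was -1.17 (SE 0.33, adjusted p = 0.0243, edgeR), and the call was lost without any one of the 6 NH4+ libraries, with values from -1.23 to -1.06 and adjusted p up to 0.0979. NIT2 was higher in Or-1, by 2.33 under NH4+ (adjusted p = 7.18e-06) and by 1.31 under NO3- (adjusted p = 0.000567, edgeR). A second set of deposited values, described below, gave NIT2 ratios of 2.24 in place of 4.76 under NH4+, and of 1.15 in place of 2.58 under NO3- with overlapping groups. NIT3 differed by -0.16 and 0.00, with 95% intervals of -0.56 to 0.23 and -0.39 to 0.40.

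The order of the groups therefore differed by gene. For NIT2 it was Or-1 under NH4+, then Rak-2 under NH4+ and Or-1 under NO3-, whose libraries overlapped, then Rak-2 under NO3-. In the second set of values Rak-2 under NH4+ stood apart as the next group, and both NO3- groups overlapped. For NIT1 both Rak-2 groups, which overlapped, stood above Or-1 under NH4+, and Or-1 under NO3- was lowest. For NIT4 the order was Or-1 under NH4+, Rak-2 under NH4+, Rak-2 under NO3- and Or-1 under NO3-, with overlap only between the Rak-2 groups.

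The ratio of NIT1 to NIT2 within each library, per kilobase of gene length, restates these opposite differences and is given as a description. In Or-1 it was 0.462, 0.331 and 0.522 under NH4+ and 1.09, 0.755 and 1.63 under NO3-. In Rak-2 it was 4.50, 5.55 and 4.81 under NH4+ and 9.94, 10.4 and 14.6 under NO3-. None of the groups overlapped. The log2 ratio in Or-1 minus that in Rak-2 was -3.52 under NH4+ and -3.38 under NO3-, a mean of -3.45. The NH4+ libraries minus the NO3- libraries gave -1.36 in Or-1 and -1.21 in the other ecotype, with -1.29 as the mean. No p is given, since both genes' differences were known before the ratio was formed.

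Per kilobase, levels could be compared between genes. The members summed to 118 ± 7.86 normalized CPM per kilobase (SD, n = 3) in Or-1 under NH4+ and 49.8 ± 9.0 under NO3-. In Rak-2 the sums were 101 ± 3.47 and 80.8 ± 14.5. Or-1 had the lower sum under NO3-, with no overlap. Under NH4+ its libraries lay at 110 to 125 and those of Rak-2 at 97.4 to 104, but this order rests on the gene lengths used. With the shorter lengths of a second set of deposited tables, described below, the NH4+ sums were 137 ± 8.41 (Or-1) and 140 ± 5.82 (Rak-2) and overlapped, while those under NO3- were 57.4 ± 13.4 and 111 ± 20.9 and did not.

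The makeup of the sums, at the lengths of the count table, also differed. NIT2 made up 54.3% ± 3.25 (SD, n = 3) of the sum in Or-1 under NH4+, 21.1% ± 1.01 in Or-1 under NO3-, 12.5% ± 1.53 in Rak-2 under NH4+ and 5.26% ± 0.454 in Rak-2 under NO3-. NIT1 made up 61.7% ± 2.79 and 60.6% ± 7.54 in Rak-2 under NH4+ and NO3-, but 23.6% ± 4.21 and 24.5% ± 9.69 in Or-1. NIT3 was the leading member in Or-1 under NO3-, at 54.3% ± 9.94. NIT4 never passed 5.01% of the sum in any library.

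**Figure D3:**
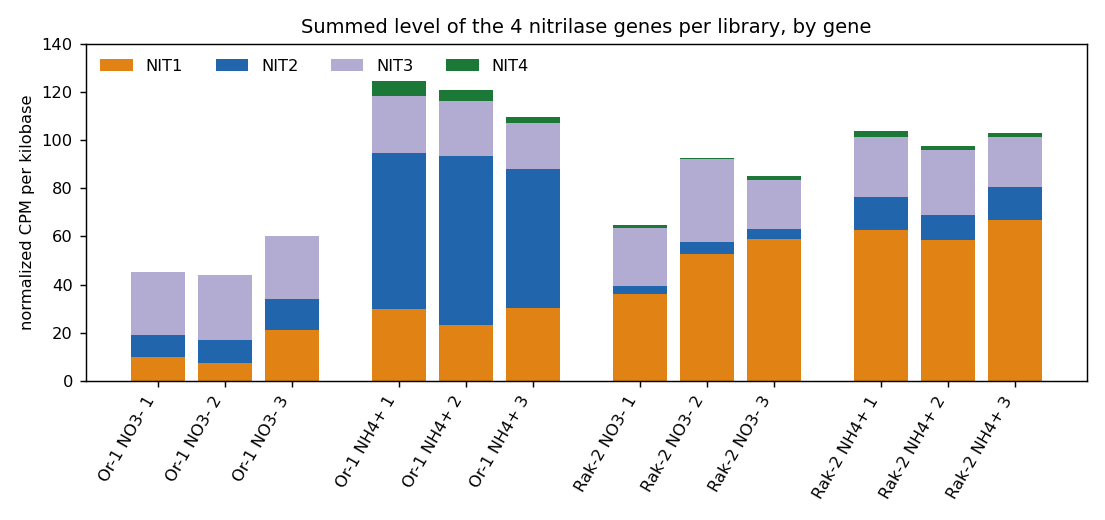
Summed level of the 4 genes in each of the 12 libraries (vertical axis, normalized CPM per kilobase), stacked by gene. The Or-1 libraries go from 43.8 to 60.1 under NO3- to 110 to 125 under NH4+ with NIT2 taking the largest part, while NIT1 is the largest part in every Rak-2 library.

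The second set of deposited values changed part of this picture. The tables of genes that the authors called differential hold FPKM (fragments scaled to gene length and library size) for the same libraries under NCBI gene identifiers, and they list NIT2 for all 4 groups, NIT4 for 3 and NIT1 for both NH4+ groups. Their annotation is not given in the sources used here, and of 3604 genes found in both sources 44.9% had another length there, which NIT2 did not. They were read as values, with no test, in a check added after the data were seen. For NIT2 in Or-1 they gave 1.05 to 1.08 times the FPKM computed from the counts, but in Rak-2 2.08 to 2.54 times. NIT1 was at 1.80 to 1.82 times in Or-1 and 2.5 to 2.6 times in Rak-2 under NH4+, with a gene length of 1241 bases in place of 1982.

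The NH4+ responses of NIT2 hardly moved between the sources. In the second tables NIT2 was at 69.46, 72.84 and 61.42 FPKM in Or-1 under NH4+ and 9.29, 10.3 and 14.13 under NO3-, a ratio of means of 6.04. In Rak-2 it was at 34.17, 25.94 and 31.00 and at 8.18, 10.8 and 10.4, a ratio of 3.1. The ecotype differences did move. Under NH4+ NIT2 was 2.24 times higher in Or-1 in the second tables and 4.76 times higher in the FPKM from the counts. Under NO3- it was 1.15 times higher, with overlapping groups, in place of 2.58 times. The size of the NIT2 difference between the ecotypes therefore depends on the source of the values.

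NIT1 stayed lower in Or-1 under NH4+, with a log2 ratio of means of -1.74 in the second tables and -1.25 from the counts. The NIT1 to NIT2 ratio under NH4+ was 0.564 to 0.897 in Or-1 and 4.74 to 6.04 in Rak-2 in the second tables, 2.92 lower on the log2 scale in Or-1. For NIT4 under NH4+ the second tables gave 10.49, 7.38 and 4.00 FPKM in Or-1 and 4.04, 2.41 and 2.81 in Rak-2, so the groups overlapped there. The shift of the ecotype difference between the sources was read for 1279 genes listed for both NH4+ groups, with means over 1 FPKM in both sources. It was at least as large as that of NIT2, 1.09 on the log2 scale, for 69 of these genes (5.39%), and the median shift was 0.00. Why the sources differ at NIT2 was not tested.

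**Figure D4:**
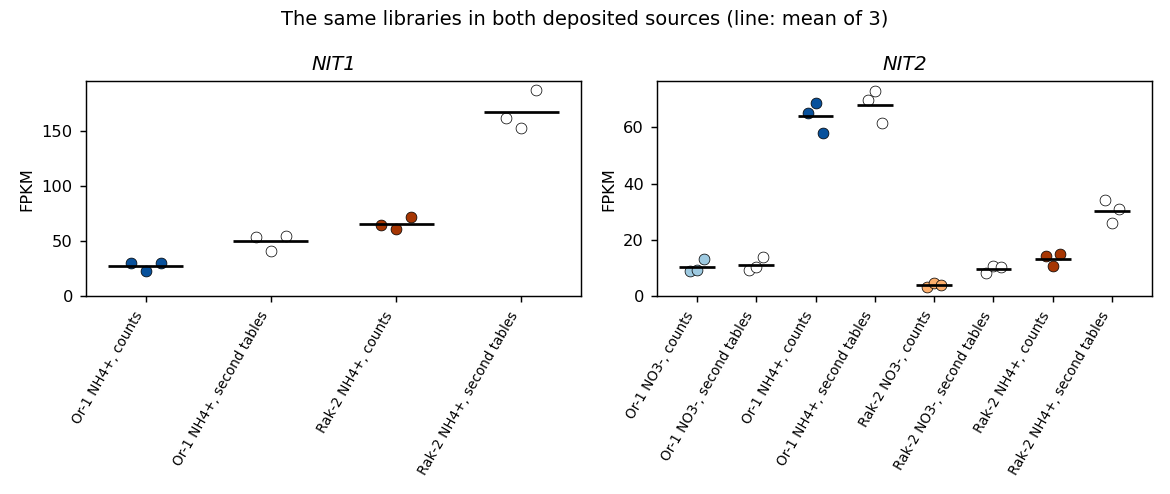
FPKM of NIT1 and NIT2 (vertical axes, from 0) in the same libraries, filled where computed from the counts and open where read from the second tables, with lines at the means of 3 libraries. NIT2 in Rak-2 under NH4+ lies at 11 to 14.9 from the counts and at 25.9 to 34.2 in the second tables, while the NIT2 values for Or-1 lie close together. NIT1 in Or-1 under NH4+ lies at 22.7 to 30.2 from the counts and at 41.1 to 55.1 in the second tables.

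The counts of NIT1, NIT2 and NIT3 were also added to 1 row, which removes any division of counted reads among them. Reads left out of the counts would still be missing from this row. The row rose by 1.19 in Or-1 (SE 0.17, adjusted p = 0.000640) and changed by 0.33 in Rak-2 (adjusted p = 0.213, edgeR). Between the ecotypes the summed row differed by 0.05 under NH4+ (adjusted p = 0.854) and by -0.82 under NO3- (adjusted p = 0.00581, edgeR), the latter below the fold threshold. The opposite ecotype differences of NIT1 and NIT2 under NH4+ thus nearly cancelled in these counts. The FPKM of the second tables were not summed in this way.

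Around the genes, 12 annotated neighbours were taken, 3 on each side of the row and of NIT4, and 7 of them were tested. In Or-1 1 of these 7 was called higher under NH4+, AT5G22270 near NIT4, at 1.38 on the log2 scale, and 0 were called lower. In Rak-2 0 of 7 were called by edgeR, with 2 at an unadjusted p under 0.05. Their median change was 0.00 in Or-1, and 0.11 in the other ecotype. Of 4 other genes of the nitrilase superfamily, which share the catalytic fold but act on other substrates, 0 were called by edgeR in either ecotype, with 1 and 3 at an unadjusted p under 0.05, and also 0 by DESeq2. Their log2 fold changes ran from -0.10 to 0.45 in Or-1. In Rak-2 they ran from -0.41 to 0.44.

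The 250 bases before the annotated start are shown for NIT2 and NIT4, the members with the largest NH4+ responses in Or-1 (plus strand, TAIR10.1 of RefSeq). They were searched on both strands for TTGACC and TTGACT (W-box), CACGTG (G-box), TGACGT (TGA element), TGTCTC (auxin response element) and GAGAC (sulfur response core), and capitals mark matches.
NIT2, chr3:15982949-15983198: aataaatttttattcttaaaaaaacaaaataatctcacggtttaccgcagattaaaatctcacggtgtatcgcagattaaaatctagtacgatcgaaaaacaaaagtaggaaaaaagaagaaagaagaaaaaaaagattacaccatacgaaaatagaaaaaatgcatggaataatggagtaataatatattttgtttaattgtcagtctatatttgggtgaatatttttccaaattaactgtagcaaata
NIT4, chr5:7378937-7379186: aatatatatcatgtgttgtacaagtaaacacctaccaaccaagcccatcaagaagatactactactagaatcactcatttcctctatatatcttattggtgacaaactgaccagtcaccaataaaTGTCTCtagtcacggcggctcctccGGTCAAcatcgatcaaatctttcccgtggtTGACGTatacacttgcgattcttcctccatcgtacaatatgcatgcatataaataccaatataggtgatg

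NIT2 held none of these letters. NIT4 held TGTCTC at 125 bases before the start, with GAGAC overlapping it on the other strand, a W-box TTGACC on the minus strand at 100 bases and TGACGT at 70 bases. Of 27443 promoter windows of the same length, 10.9% held TGTCTC, 25.8% GAGAC, 12.2% TTGACC, 19.1% TTGACT, 7.69% TGACGT and 6.49% CACGTG. NIT1 held none, and NIT3 held CACGTG at 13 bases. These matches are a description of the Col-0 reference, not of the sequences of Or-1 or Rak-2.

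Indole-3-acetonitrile, a substrate of the NIT1 to NIT3 group, is made from tryptophan by CYP79B2 and CYP79B3, which form indole-3-acetaldoxime, and by CYP71A12 and CYP71A13, which dehydrate it. Of 4 such genes tested of 5 listed, 3 were called higher under NH4+ in Or-1 and 0 lower, with a median log2 fold change of 2.83. In Rak-2 0 were called higher and 1 lower, with a median of -0.98. The response differed between the ecotypes for 4 of 4, all higher in Or-1, with a median of 3.16. Of all genes tested, 1.23% were called for this difference (1.08% higher in Or-1). For the responses, here and in the lists below, the shares over all genes were 8.86% in Or-1 (5.26% higher) and 6.09% in Rak-2 (2.69% higher). The list was drawn up with results of these libraries known, so its direction is not independent evidence.

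CYP79B2 went from 79.0 to 138 normalized CPM under NO3- to 514 to 785 under NH4+ in Or-1, up by 2.54 in log2 units (SE 0.31). In Rak-2 it was at 159 to 336 under NO3- and 143 to 200 under NH4+, where its change of -0.72 was not called. CYP79B3 lay at 105 to 133 under NO3- and 105 to 128 under NH4+ in Or-1 and fell from 163 to 210 to 61.3 to 66.4 in Rak-2, a log2 fold change of -1.55 (SE 0.13). The CYP79B2 rise in Or-1 and the CYP79B3 fall in Rak-2 were called in all 12 fits that left out one library.

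CYP71A12 rose in Or-1 by 3.12 on the log2 scale, from 38.4 to 78.7 normalized CPM to 386 to 845, and changed by 0.05 in Rak-2. Its difference of response, 3.07 (adjusted p = 0.0343, edgeR), was called in only 3 of the 12 fits that left out one library. The call was kept without Or-1 replicate 1 of either nitrogen source or Rak-2 replicate 3 under NO3-, and the values ran from 2.60 to 3.41. CYP71A13 held 3 to 6 counts in the Or-1 libraries under NO3- and 161 to 770 under NH4+. In Rak-2 it held 58 to 167 and 31 to 65. CYP71A12 and CYP71A13 are close relatives whose reads could have been divided between them, so their separate values are uncertain. Their sequences were not compared here.

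**Figure D5:**
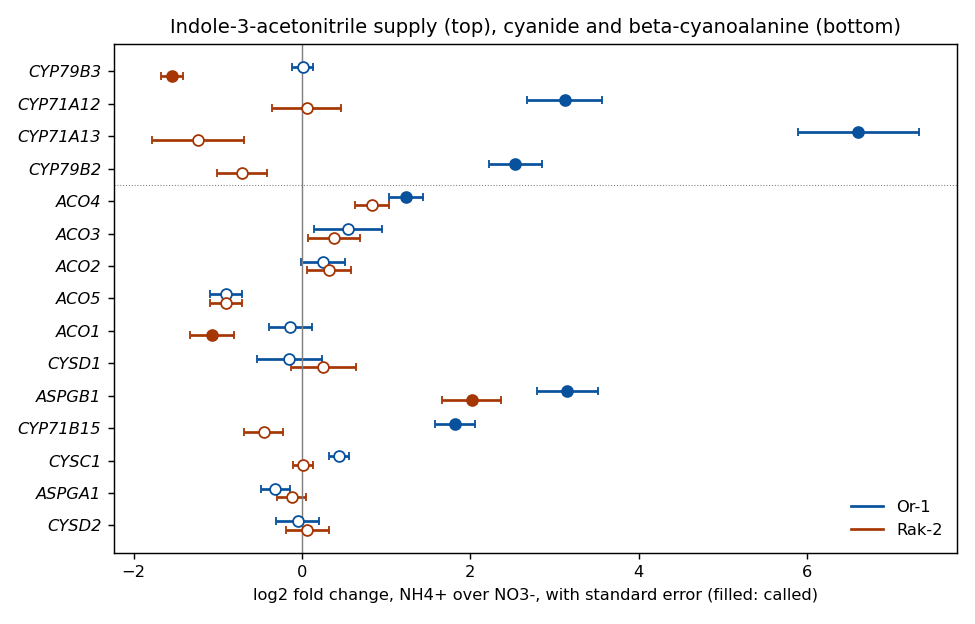
Log2 fold changes under NH4+ (horizontal axis) with standard errors for 4 genes that supply indole-3-acetonitrile and, below the dotted line, 11 genes of cyanide release and beta-cyanoalanine metabolism, in Or-1 and Rak-2, filled where called. The blue points of CYP71A12, CYP71A13 and CYP79B2 lie at 2.54 to 6.61 and those of Rak-2 at -1.23 to 0.05.

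NIT4 works downstream of cyanide release, and 11 genes of that route were tested. In Or-1 3 were called higher and 0 lower (median 0.25). In Rak-2 1 was called higher and 1 lower, with a median of 0.07. ASPGB1, an asparaginase that splits asparagine, rose in both ecotypes, from 1.68 to 3.56 normalized CPM to 16.8 to 28.1 in Or-1 (log2 fold change 3.15). In Rak-2 it went from 1.75 to 4.32 to 9.99 to 13.9 (2.02). CYP71B15, the last enzyme of camalexin synthesis, which releases cyanide, rose from 29.1 to 40.9 to 103 to 160 in Or-1, by 1.82, and changed by -0.45 in Rak-2. Its difference of response, 2.27, was the only one called on this list (adjusted p = 0.00986, edgeR).

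The ACC oxidase ACO4, which makes ethylene and cyanide, rose by 1.23 in Or-1 and changed by 0.83 in Rak-2. ACO1, of the same family, fell by 1.07 in Rak-2 and changed by -0.14 in Or-1. The ACO1 call was lost without any Rak-2 library under NH4+ or replicate 1 of Rak-2 under NO3-, with values down to -0.65, and under total count or upper-quartile scaling. CYSC1, the mitochondrial enzyme that makes beta-cyanoalanine, was looked at after its values were seen, and its changes, 0.44 (Or-1) and 0.01 (Rak-2), were below the fold threshold.

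Glucosinolates are the other source of nitriles. Of 10 tested genes of 13 listed for their breakdown by myrosinases and nitrile specifier proteins, 0 were called higher and 1 lower in Or-1, at a median of -0.40. In Or-1 5 had an unadjusted p under 0.05 (edgeR), and 2 of the 10 changes were positive. The nitrile specifier gene NSP5 was looked at after its values were seen. In Or-1 it was at 39.0 to 40.9 normalized CPM under NO3- and 70.9 to 89.6 under NH4+. Its log2 fold change of 0.996 (adjusted p = 0.00379, edgeR) was just under the fold threshold. In Rak-2 edgeR called 0 (4 at an unadjusted p under 0.05, and 2 called lower by DESeq2), with a median of -0.82. The gene called in Or-1 was the myrosinase TGG2, with 66 to 108 counts under NO3- and 3 to 25 under NH4+. It held 0 or 1 counts in the Rak-2 libraries. The TGG2 call was lost without Or-1 replicate 2 or 3 under NH4+ or replicate 1 or 2 under NO3-, with adjusted p up to 0.0984.

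Indole-3-acetic acid is also made without nitrilases, and it is conjugated to amino acids by GH3 enzymes, whose genes respond to auxin. Of 9 tested genes of 14 listed for other auxin synthesis, 1 was called higher in Or-1 and 0 lower (median 0.18), and 0 were called in Rak-2 (4 at an unadjusted p under 0.05, 0 by DESeq2, median 0.09). The called gene, the flavin monooxygenase YUC5, changed by 1.61 and lost its call in 4 of the 12 fits that left out one library: without Or-1 replicate 1 or 2 under NH4+ or replicate 1 or 3 under NO3-, with adjusted p up to 0.124.

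Of 6 tested GH3 genes, 3 were called higher in Or-1 and 0 lower (median 1.66), and 0 were called in Rak-2 (0 at an unadjusted p under 0.05, and 0 by DESeq2; median 0.28). GH3.1 rose by 2.42, GH3.3 by 2.22 and GH3.2 by 2.21 on the log2 scale. GH3.2 was at 347 to 419 normalized CPM in Or-1 under NH4+ and 54.4 to 138 under NO3-, against 34.9 to 47.1 and 10.8 to 67.1 in Rak-2. Its call was lost without Or-1 replicate 2 under NH4+ or replicate 2 or 3 under NO3-, with adjusted p up to 0.0854. The difference of response was called for 0 of the 6 by edgeR and by DESeq2, and 3 had an unadjusted p under 0.05.

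Because NIT3 is known for sulfur starvation, and the NH4+ solution carried sulfate, 9 tested genes of 12 listed as sulfur deficiency markers were read beside it. In each ecotype 1 was called higher and 2 lower, with medians of -0.20 (Or-1) and 0.00 (Rak-2). The sulfate transporters SULTR1;1 and SULTR1;2, which take sulfate up into roots, fell. SULTR1;1 changed by -2.52 in log2 units in Or-1 and SULTR1;2 by -2.03. The Rak-2 values were -2.34 and -2.0. LSU1 held 0 to 2 counts under NO3- and 15 to 37 under NH4+ in Or-1. In Rak-2 it held 2 to 3 and 19 to 45. NIT3 was not among the genes called in either ecotype.

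For each member, the 3 tested genes with the most similar profile were found by Pearson's r of log2(CPM + 1) over the 12 libraries, which share the same groups. For NIT2 they were AT5G22140 (r = 0.978), CAX3, a vacuolar calcium and proton exchanger (0.976), and AT1G51670 (0.975). For NIT4 they were MT2A, a metallothionein (0.959), the cytochrome P450 gene CYP72A8 (0.954) and AT2G30150 (0.949). For NIT1 they were the cyclin-dependent kinase gene CDKC;1 (0.963), RTE1 of ethylene receptor function (0.952) and the glutaminyl cyclase gene QC (0.936). For NIT3, whose levels varied least, they were AT4G22810 (0.918), ENODL18 (0.900) and HST (0.899). No member was among the others' closest genes, and r between NIT1 and NIT2 was -0.14.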

How the data were processed

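Total RNA of roots was sequenced on an Illumina HiSeq platform after NEBNext Ultra library preparation. The authors deposited whole read counts per gene and library together with gene lengths, and the aligner, counting program and genome build are not given in the sources used here. The authors also deposited 3 tables of genes they called, with FPKM per library, lengths and columns of fold change, p-value and FDR, of which only the FPKM and length columns were used.

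Groups followed the ecotype, phenotype and treatment labels. Counts were scaled by TMM and filtered by filterByExpr (minimum count 10, minimum total 15) in edgeR 4.0.16 (R 4.3.3), and fitted over 12 libraries with 1 coefficient per group. The standard error was taken from the log2 fold change and the F statistic, and 95% intervals from the same fit. Ratios of NIT1 to NIT2 used a pseudocount of 0.5 counts, and their planned permutation tests are not reported, since the ratio was chosen with both genes' differences known (Python 3.11.15). DESeq2 1.42.0 and limma 3.58.1 served as alternatives, with other scalings, no filter, a replicate block, only the groups compared, summed NIT1 to NIT3 counts and each library left out. The scripts were tested on simulated data. The members and lists were chosen with earlier results of these data known. Named genes were the members, their 3 most similar genes, and up to 3 called genes per list and comparison with the largest changes. P-values set a difference against the spread between these libraries, which the main fit estimates from all 12. Counting intervals cover counting error only.

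Same-numbered libraries deviated together between the Or-1 groups (r = 0.30 to 0.46) and between the NH4+ groups (0.33 to 0.38), with no label that explains the number. Under NO3- the values were 0.56, 0.099 and 0.58 for replicates 1, 2 and 3, and each was the best match of its own number. In Rak-2 they were 0.16, 0.01 and 0.36. The main fit holds no term for this number.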

Additional observations from a re-analysis of the deposited data

Results flagged for a closer look

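The response to NH4+ differed between Or-1 and Rak-2, by the test of the difference itself, for 1 nitrilase and 5 genes of the lists. On the log2 scale, Or-1 minus Rak-2, the difference was 6.41 for NIT4 (adjusted p = 0.00804, edgeR's quasi-likelihood test). It was 7.84 for CYP71A13, 3.25 for CYP79B2, 3.07 for CYP71A12, 2.27 for CYP71B15 and 1.55 for CYP79B3. By the same test the adjusted p of these 5 list genes ran from 0.00677 to 0.0343. In the Or-1 libraries under NO3-, NIT4 held 0 to 3 counts and CYP71A13 3 to 6, so both sizes are uncertain. The CYP71A12 call stood in only 3 of the 12 fits that left out one library. Over all genes tested, 237 were called for this difference, 208 of them with the larger value in Or-1. That count ran from 69 (without Rak-2 replicate 1 under NH4+) to 613 (without Rak-2 replicate 3 under NO3-) when single libraries were left out, and differed by more than 1.5 times in 9 of the 12 such fits, all but those without Or-1 replicate 1 under NH4+ or Or-1 replicate 1 or 2 under NO3-.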

How the results depend on the processing

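Of 422 member results under alternatives, 375 kept their direction and, where tested, their side of the threshold. Of the others, 13 of NIT3 turned sign without a call in either fit, 27 lost their call, 1 gained one, 3 reversed, and 3 read from the second tables moved by more than a standard error. Among the 375 are untested values of the second tables that moved by less than a standard error: both NIT2 responses and the NIT4 difference under NH4+. Of those 13, 4 came from the summed row described next, and the other values were at most 0.146 in size. The 3 reversals all came from adding NIT1, NIT2 and NIT3 to 1 row, by construction: 1.19 in place of the NIT3 response in Or-1, 0.050 in place of the NIT1 difference under NH4+ and -0.82 in place of the NIT2 difference under NO3-. DESeq2's Wald test called the difference of response for 2 members in place of 1. When single libraries were left out, 2 to 3 members were called in Or-1, 1 in Rak-2, 1 to 3 between the ecotypes under NH4+, 3 under NO3- and 1 for the difference of response. The NIT1 to NIT2 ratio then differed by -3.59 to -3.31 between the ecotypes and by -1.42 to -1.14 between the nitrogen sources. The NIT1 response in Or-1 also lost its call with total count scaling, upper-quartile scaling and only the groups compared (adjusted p up to 0.0861 over 8 alternatives), and the causes were not tested. A check added after the data were seen kept the counts and took the gene lengths of the second tables. The summed level of the members per kilobase under NH4+ then differed between Or-1 and Rak-2 by -2.39 in place of 16.9. Under NO3- it differed by -53.3 in place of -31.0.

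With the replicate block, every member call stood, and the NIT1 response in Or-1 was 1.21 (adjusted p = 0.0113, edgeR). Over all genes the block called 398 differences of response and DESeq2 712, against 237. Total count scaling moved the median of all genes by 0.12 in Rak-2 and by -0.13 for the difference of response, and upper-quartile scaling moved the latter by -0.11. Total count scaling also changed the split of called genes in Rak-2 from 519 higher and 658 lower to 687 and 545, or to 615 and 586 with upper quartiles. Depth limits NIT4 most, since its level in Or-1 under NO3- rests on 4 counts.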
